A study of Mus musculus with 6 samples.

Results

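The LSD1-CoREST complex was followed at the level of its transcripts in the mouse heart ventricle, in animals that lack Cend1 and in controls at postnatal day 14. Its members were taken as 10 named subunit genes: Kdm1a, Rcor1, Rcor2, Rcor3, Hdac1, Hdac2, Phf21a, Hmg20b, Gse1 and Zmym2. All 10 were found by gene symbol, with 1 row each, among 57010 gene identifiers in the deposited table. All 10 also passed the filter on low values that left 13542 genes for testing. There were 3 Cend1-KO libraries and 3 control libraries, each of total RNA from ventricles at postnatal day 14. Their titles number them 1, 3 and 4 in each group. The sources used here do not give the strain, the sex, the form of the Cend1 deletion or whether each library came from its own animal, so the p-values cover library-to-library spread that could in part be technical. Values are the authors' TPM (transcript abundance scaled by gene length and by library), which keep no sequencing depth.

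LSD1, the product of Kdm1a, is a flavin-dependent demethylase that removes methyl groups from mono- and dimethylated lysine 4 of histone H3 and thereby acts mostly as a repressor. A CoREST scaffold protein, made by Rcor1, Rcor2 or Rcor3, joins it to the deacetylases HDAC1 or HDAC2 and allows it to act on nucleosomes. Factors such as REST bring the complex to neuronal genes in non-neuronal tissue. The series title ties heart regeneration to the suppression of Cend1, a cell-cycle exit gene of neurons, by LSD1. Here Cend1 is the deleted gene, and the comparison gives the transcripts of the complex itself when Cend1 is absent.

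The libraries differed as wholes, which bears on every value below. Mitochondrial-genome and hemoglobin genes together took 20.3%, 35.9% and 24.1% of TPM in Cend1-KO replicates 1, 3 and 4, and 18.8% to 20.1% in controls. Median-of-ratios factors, which measure how far a typical gene is shifted in a library, were 0.718 in Cend1-KO replicate 3 and 1.24 in Cend1-KO replicate 1, against 0.992 in Cend1-KO replicate 4 and 0.986 to 1.13 in controls. Results are given as deposited and after division by these factors, called scaled below. The median difference over all tested genes was -0.11 in log2(TPM + 1) as deposited and -0.0043 after scaling. The 10 cardiomyocyte markers summed to 33801 to 50167 TPM in Cend1-KO and 59708 to 66616 in controls, with none at 0. Lung epithelial markers, foreign to the heart, summed to 499.9 and 822.5 TPM in Cend1-KO replicates 1 and 4, and to at most 0.334 TPM in the other libraries, with Sftpc, Sftpb and Scgb1a1 at 0 in every control. Erythroid markers summed to 10633 to 24498 TPM in Cend1-KO and 1389 to 4474 TPM in controls, and adipocyte markers to 1954 to 4024 TPM in Cend1-KO and 1236 to 1519 TPM in controls. The part of these cells in the results below was not tested. Cend1 itself was listed at 0 in the Cend1-KO libraries and had 1.44, 1.99 and 1.54 TPM in control replicates 1, 3 and 4.

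None of the 10 subunits passed the test as deposited (limma, Benjamini-Hochberg adjusted p under 0.05), where 1.7% of all tested genes were called, 0.79% as higher and 0.908% as lower. At an unadjusted p under 0.05 there was 1 subunit, Rcor2 (lower), beside 15.4% of all genes, 10.4% lower and 4.98% higher. After median-of-ratios scaling 1 of the 10, again Rcor2, fell in Cend1-KO ventricles, beside 10.4% of all genes called, 4.3% as lower and 6.12% as higher. At an unadjusted p under 0.05 there were then 4 subunits, beside 28.5% of all genes. Of these, Rcor2 was lower (13.6% of all genes) and Hdac1, Phf21a and Zmym2 were higher (14.9% of all genes). The shares of called subunits lie near those of all genes. As deposited the groups did not overlap for 1 subunit, Rcor2 (lower), beside 24.3% of all genes, 18.6% lower and 5.67% higher. After scaling they did not overlap for 5 subunits, beside 35.1% of all genes: Kdm1a and Rcor2 were lower (17.6% of all genes), and Hdac1, Phf21a and Zmym2 higher (17.5% of all genes). The calls over all genes were 107 higher and 123 lower as deposited (46.5% higher), and 827 higher and 581 lower after scaling (58.7% higher). The median difference of the subunits was -0.19 as deposited and -0.07 after scaling, and 7 of the 10 were below 0 on both scales, where 62.4% and 50.6% of all genes were below 0. With TPM as the basis and 1 setting changed, limma called 0 subunits without mitochondrial and hemoglobin genes, where 3.43% of all genes were called. It also called 0 with pseudocount 0.1 (1.58% of all genes) and without the robust prior (1.56%). With a 5 TPM filter, which removed Rcor2, it called 0 of the 7 subunits left (1.34% of all genes). With no filter it called no gene at all (0.0%), the deleted Cend1 included. Rcor2 was called as lower with the replicate number as a block (5.45% of all genes) and without Cend1-KO replicate 1 (5.19%).

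**Figure D1:**
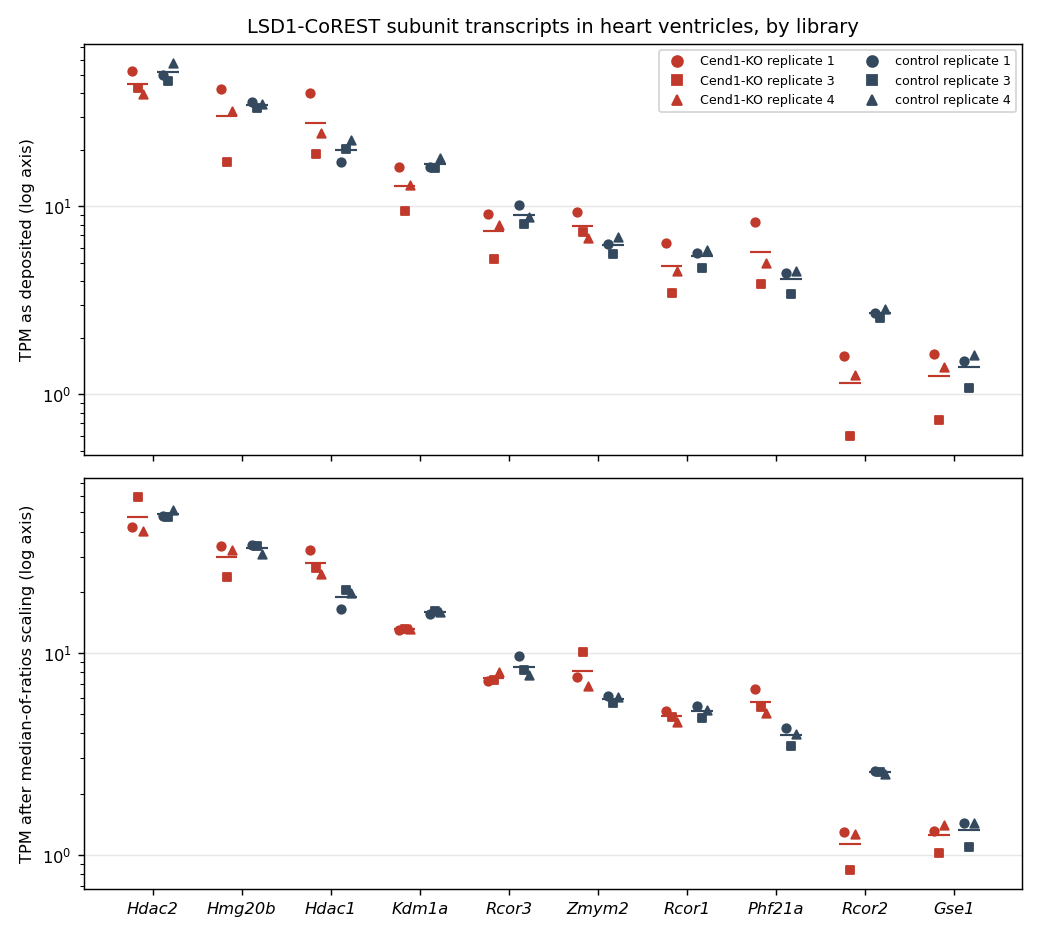
TPM of each subunit in each library on log axes, as deposited (top) and after median-of-ratios scaling (bottom), with Cend1-KO libraries in red to the left of controls in dark blue, symbols for replicate numbers and lines for group means. Cend1-KO replicate 3 is the lowest Cend1-KO library for 8 of the 10 subunits as deposited, and Rcor2 is the subunit whose groups are apart on both scales.

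Kdm1a, the catalytic subunit (ENSMUSG00000036940, mm10 chromosome 4, 136550540 to 136602723, minus strand), had 16.1, 9.49 and 13 TPM in Cend1-KO replicates 1, 3 and 4, and 16.2, 15.9 and 18.1 TPM in control replicates 1, 3 and 4. As deposited the groups overlapped through Cend1-KO replicate 1, and the difference was -0.38 (95% interval -0.93 to 0.17, adjusted p = 0.503, limma). Leaving out Cend1-KO replicate 3 gave -0.19, and leaving out Cend1-KO replicate 1 gave -0.55. After scaling, Kdm1a had 13, 13.2 and 13.1 in the Cend1-KO libraries and 15.6, 16.1 and 16 in the controls. The scaled values differed little within each group, and the groups no longer overlapped. The scaled difference was -0.26 (95% interval -0.53 to 0.01), with adjusted p = 0.187 (limma), so Kdm1a did not pass the test on either scale. The interval leaves room for a loss of up to 0.53 on that scale and for no loss. The 3 genes whose centred log2(TPM + 1) profile lay closest to that of Kdm1a over the 6 libraries, among 11925 genes at 1 TPM or more in every library, were Set, Ddb1 and Brd8, at Euclidean distances of 0.0595, 0.0682 and 0.0701. A flat profile lies at a distance of 0.70 from that of Kdm1a. The profiles are of unscaled TPM, so they hold the library-wide shifts described above, which other genes share.

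The CoREST scaffolds are 3 paralogs. Rcor1 encodes the founding member, Rcor2 a paralog known in the mouse from embryonic stem cells and neural progenitors, and Rcor3 a paralog that in blood cell precursors counteracts Rcor1 on LSD1. Rcor1 lies on mm10 chromosome 12 (111039351 to 111115901, plus strand), Rcor2 on chromosome 19 (7267325 to 7275225, plus strand) and Rcor3 on chromosome 1 (192098546 to 192138062, minus strand). The 250 bases before each RefSeq start site (GRCm38.p6) are shown because Rcor2 was the scaffold whose groups lay apart. Rcor1 is taken from chr12:111039117-111039366 (plus strand), Rcor2 from chr19:7267144-7267393 (plus strand) and Rcor3 from chr1:192138041-192138290 (minus strand). Capitals mark the CCAAT box (CCAAT) and the GC box (GGGCGG), searched on both strands, and no match overlapped another.
Rcor1: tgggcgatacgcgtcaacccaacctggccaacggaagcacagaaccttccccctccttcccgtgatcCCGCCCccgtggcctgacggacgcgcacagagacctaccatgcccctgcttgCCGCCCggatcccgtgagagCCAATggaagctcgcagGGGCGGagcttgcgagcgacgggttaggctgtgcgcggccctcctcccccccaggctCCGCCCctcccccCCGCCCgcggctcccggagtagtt
Rcor2: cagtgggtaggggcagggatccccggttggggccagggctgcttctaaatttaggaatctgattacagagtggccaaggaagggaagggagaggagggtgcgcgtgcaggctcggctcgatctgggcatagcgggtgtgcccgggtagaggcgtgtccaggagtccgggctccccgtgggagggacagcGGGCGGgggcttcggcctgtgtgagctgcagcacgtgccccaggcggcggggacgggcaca
Rcor3: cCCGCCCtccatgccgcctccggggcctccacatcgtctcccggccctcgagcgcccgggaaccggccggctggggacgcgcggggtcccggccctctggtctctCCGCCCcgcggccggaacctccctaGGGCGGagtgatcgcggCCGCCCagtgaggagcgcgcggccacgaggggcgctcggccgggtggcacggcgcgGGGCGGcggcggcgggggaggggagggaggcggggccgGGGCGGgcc
The Rcor1 window held 1 CCAAT box and 5 GC boxes, the Rcor2 window 1 GC box, and the Rcor3 window 6 GC boxes. Of 32536 distinct RefSeq windows of this length, 33.8% held a CCAAT box and 33.0% a GC box. GC content was 70.4%, 67.6% and 82.8% in the Rcor1, Rcor2 and Rcor3 windows, with 25, 17 and 39 CpG dinucleotides, against medians of 52.4% and 6 over all windows. The E2F sites TTTCGCGC and TTTGGCGC and the cell-cycle homology region TTTGAA were in none of the 3 windows, and in 0.258%, 0.421% and 15.8% of all windows.

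Rcor2 transcripts were lower in every Cend1-KO library than in any control. They had 1.6, 0.601 and 1.26 TPM in Cend1-KO replicates 1, 3 and 4, and 2.70, 2.54 and 2.85 TPM in control replicates 1, 3 and 4. The controls lay close together, and Cend1-KO replicate 3 was the lowest library. The means were 1.15 ± 0.51 TPM in Cend1-KO and 2.69 ± 0.157 TPM in controls (SD, n = 3 each). The difference of -0.81 (95% interval -1.28 to -0.33) had adjusted p = 0.0956 (limma) and did not pass the test as deposited. With pseudocount 0.1 it was -1.25 (adjusted p = 0.118, limma). After median-of-ratios scaling Rcor2 had 1.29, 0.836 and 1.27 in Cend1-KO and 2.59, 2.57 and 2.52 in controls. On that scale it fell by 0.75 (95% interval -1.05 to -0.44, adjusted p = 0.00957, limma). With median-of-ratios scaling it was called whichever of the 6 libraries was left out, with adjusted p between 0.0113 and 0.0477 (limma). The share of all genes called was then 7.12%, 10.3% and 8.46% without Cend1-KO replicates 1, 3 and 4, and 3.81%, 3.3% and 7.93% without control replicates 1, 3 and 4. As deposited, Rcor2 was called without Cend1-KO replicate 1 (adjusted p = 0.0145, limma, beside 5.19% of all genes). It was not called without Cend1-KO replicate 3 or 4 (6.0% and 0.757% of all genes) or without control replicate 1, 3 or 4 (0.755%, 0.486% and 1.81%). With the replicate number as a block it was called as deposited (5.45% of all genes) and after scaling (8.24%). Of 10 markers of cycling cells, all 10 were below every control in the Cend1-KO libraries, beside 18.6% of all tested genes. The markers summed to 92.0 to 163.5 TPM in Cend1-KO and 259.4 to 352.0 TPM in controls, with none at 0. Their part in the Rcor2 result was not tested. In whole ventricles, fewer cells of a type and less RNA per cell cannot be told apart.

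Rcor1 and Rcor3 did not differ by the test. Rcor1 had 6.41, 3.46 and 4.50 TPM in Cend1-KO replicates 1, 3 and 4, and 5.67, 4.69 and 5.88 TPM in control replicates 1, 3 and 4. The groups overlapped on both scales, and the scaled difference was -0.07 (95% interval -0.36 to 0.21, adjusted p = 0.741, limma). Rcor3 had 9.05, 5.25 and 7.97 TPM in Cend1-KO and 10.1, 8.08 and 8.77 TPM in controls, again with overlap on both scales. Its scaled difference was -0.16 (95% interval -0.46 to 0.15, adjusted p = 0.472, limma). Rcor3 shares some exonic bases with 3 annotated genes on the opposite strand. The library kit is not stated to mark strand, so reads from the shared bases cannot be told apart. Of the summed TPM of the 3 scaffolds, Rcor2 made up 9.40%, 6.45% and 9.18% in Cend1-KO replicates 1, 3 and 4, and 14.6%, 16.6% and 16.3% in control replicates 1, 3 and 4. Rcor3 was the most abundant scaffold in every library, with 55.8% ± 2.55 of the sum in Cend1-KO and 52.5% ± 2.28 in controls, and Rcor1 held 35.8% ± 2.67 in Cend1-KO and 31.7% ± 1.67 in controls (SD, n = 3 each).

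Hdac1 and Hdac2 encode the near-identical class I deacetylases that the complex shares with other repressors, and in mouse cardiomyocytes each can stand in for the other. Hdac1 (chromosome 4, 129516104 to 129542713, minus strand) had 40.1, 19.0 and 24.4 TPM in Cend1-KO replicates 1, 3 and 4, and 17.2, 20.2 and 22.4 TPM in control replicates 1, 3 and 4. Cend1-KO replicate 1 was far above all other libraries, and Cend1-KO replicate 3 lay within the controls. The difference was 0.40 (95% interval -0.20 to 1.01, adjusted p = 0.523, limma), and 0.12 without Cend1-KO replicate 1. After scaling, Hdac1 had 32.4, 26.5 and 24.6 in Cend1-KO and 16.5, 20.5 and 19.9 in controls. The scaled groups did not overlap, and the difference of 0.53 (95% interval 0.19 to 0.87) had adjusted p = 0.0552 (limma), just above the threshold. The sum of 8 endothelial markers was also highest in Cend1-KO replicate 1. It was 877.2, 287.2 and 366.5 TPM in Cend1-KO replicates 1, 3 and 4, and 274.5 to 335.6 TPM in controls, with none at 0. Of the 8, 3 were above every control, beside 5.67% of all tested genes. Fibroblast, erythroid and adipocyte markers also had their highest sums in Cend1-KO replicate 1, at 4802.4, 24498.1 and 4024.2 TPM. The other marker lists had theirs in other libraries. The part of any of these cells in the Hdac1 values was not tested.

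Hdac2 (chromosome 10, 36974544 to 37001889, plus strand) had the highest mean of the subunits in both groups. It had 52.4, 42.6 and 39.8 TPM in Cend1-KO replicates 1, 3 and 4, and 50.0, 46.6 and 58.1 TPM in control replicates 1, 3 and 4. The groups overlapped on both scales. The scaled difference was -0.07 (95% interval -0.45 to 0.31, adjusted p = 0.814, limma).

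**Figure D2:**
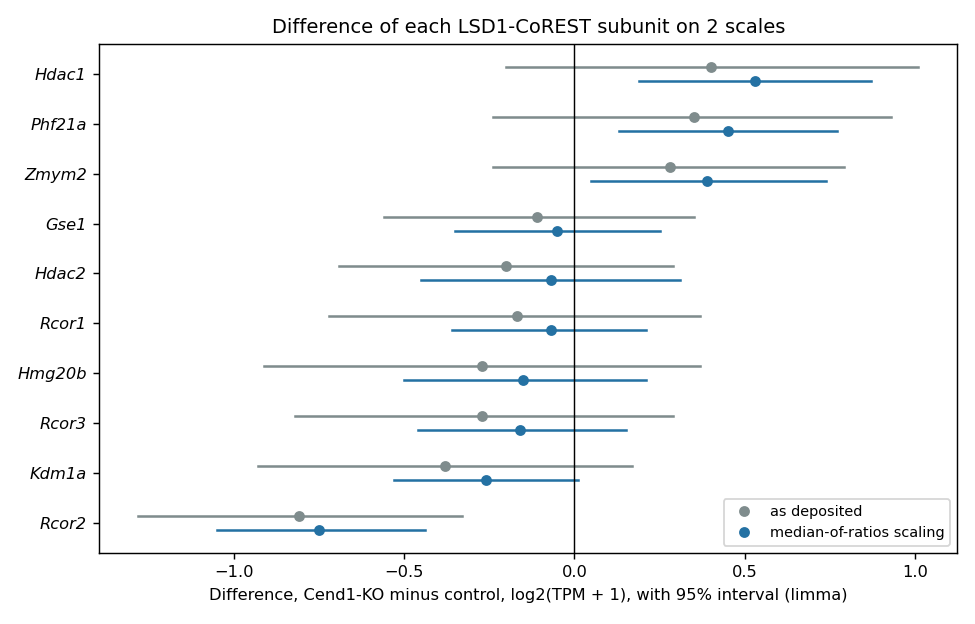
Difference of each subunit (Cend1-KO minus control, log2(TPM + 1)) with 95% intervals from limma, as deposited in grey and after median-of-ratios scaling in blue. The Rcor2 interval lies below 0 on both scales. Those of Hdac1, Phf21a and Zmym2 span 0 as deposited and lie above 0 after scaling, where their adjusted p-values were 0.0552, 0.0744 and 0.131 (limma).

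The remaining subunits read, bind or bridge chromatin. Phf21a encodes BHC80, a protein whose PHD finger binds histone H3 that is unmethylated at lysine 4 (chromosome 2, 92093117 to 92364666, plus strand). It had 8.21, 3.87 and 5.01 TPM in Cend1-KO replicates 1, 3 and 4, and 4.43, 3.40 and 4.50 TPM in control replicates 1, 3 and 4. The groups overlapped as deposited and were apart after scaling, at 5.04 to 6.62 in Cend1-KO and 3.45 to 4.26 in controls. As deposited the difference was 0.35 (95% interval -0.24 to 0.93, adjusted p = 0.575, limma), and 0.09 without Cend1-KO replicate 1. The scaled difference was 0.45 (95% interval 0.13 to 0.77) with adjusted p = 0.0744 (limma).

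Zmym2 encodes a zinc-finger protein that binds SUMO (chromosome 14, 56886653 to 56962701, plus strand). It had 9.38, 7.28 and 6.82 TPM in Cend1-KO replicates 1, 3 and 4, and 6.33, 5.57 and 6.85 TPM in control replicates 1, 3 and 4. Cend1-KO replicate 4 lay within the control range as deposited, and the groups were apart after scaling. As deposited the difference was 0.28 (95% interval -0.24 to 0.79, adjusted p = 0.616, limma), and 0.15 without Cend1-KO replicate 1. The scaled difference of 0.39 (95% interval 0.05 to 0.74) had adjusted p = 0.131 (limma), and was 0.25 without Cend1-KO replicate 3.

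Hmg20b encodes BRAF35, an HMG-box protein that binds DNA (chromosome 10, 81346048 to 81350480, minus strand). It had 41.9, 17.1 and 32.2 TPM in Cend1-KO replicates 1, 3 and 4, and 35.7, 33.3 and 34.9 TPM in control replicates 1, 3 and 4. The Cend1-KO libraries lay on either side of the tightly grouped controls, and the scaled difference was -0.15 (95% interval -0.50 to 0.21, adjusted p = 0.569, limma). Gse1, a coiled-coil protein found with the complex (chromosome 8, 120228456 to 120581390, plus strand), had 1.63, 0.733 and 1.39 TPM in Cend1-KO and 1.5, 1.08 and 1.61 TPM in controls. Its groups overlapped on both scales, with a scaled difference of -0.05 (95% interval -0.35 to 0.25, adjusted p = 0.837, limma). The directions of Hmg20b and Gse1 turned without Cend1-KO replicate 3, to 0.08 and 0.07 as deposited, where they were -0.27 and -0.11 with all libraries. Gse1 shares 2758 of its 10351 bp of exon with Gins2, a replication gene on the opposite strand. Reads from the shared bases cannot be told apart.

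TPM are per length, so the levels of the subunits can be ordered. In Cend1-KO libraries the order was Hdac2 (44.9 ± 6.6 TPM), Hmg20b (30.4 ± 12.5), Hdac1 (27.9 ± 11.0), Kdm1a (12.9 ± 3.33), Zmym2 (7.83 ± 1.36), Rcor3 (7.42 ± 1.96), Phf21a (5.7 ± 2.25), Rcor1 (4.79 ± 1.49), Gse1 (1.25 ± 0.464) and Rcor2 (1.15 ± 0.51; SD, n = 3 each). Neighbours in that order overlapped in range except Hdac1 and Kdm1a, Kdm1a and Zmym2, and Rcor1 and Gse1. In controls the order was Hdac2 (51.6 ± 5.90 TPM), Hmg20b (34.6 ± 1.2), Hdac1 (19.9 ± 2.64), Kdm1a (16.7 ± 1.19), Rcor3 (8.98 ± 1.02), Zmym2 (6.25 ± 0.643), Rcor1 (5.42 ± 0.633), Phf21a (4.11 ± 0.614), Rcor2 (2.69 ± 0.157) and Gse1 (1.4 ± 0.283; SD, n = 3 each). Hdac1 and Kdm1a overlapped in range there, as did Zmym2 and Rcor1, and the other neighbours did not. In every library each scaffold was below Kdm1a in TPM, and Hdac2 above it.

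Ratios within a library do not depend on how libraries are scaled. Relative to Kdm1a, Rcor2 was lower in all 3 Cend1-KO libraries than in any control, and Hdac1, Phf21a and Zmym2 were higher, while the ranges of Rcor1, Rcor3, Hdac2, Hmg20b and Gse1 overlapped. Of all other tested genes, 4.9% were lower and 38.9% higher in this way, so the 3 higher subunits of 9 lie near the share of all genes. The scaled values of Kdm1a, the denominator, were below every control in the Cend1-KO libraries, though Kdm1a did not pass the test. Hdac1 stood at 2.49, 2.01 and 1.88 times Kdm1a in Cend1-KO replicates 1, 3 and 4, and 1.06, 1.27 and 1.24 times in control replicates 1, 3 and 4. Phf21a stood at 0.509, 0.408 and 0.385 times Kdm1a in Cend1-KO and 0.273, 0.214 and 0.248 times in controls. These ratios to Kdm1a were chosen after the values were seen and are given with no test.

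**Figure D3:**
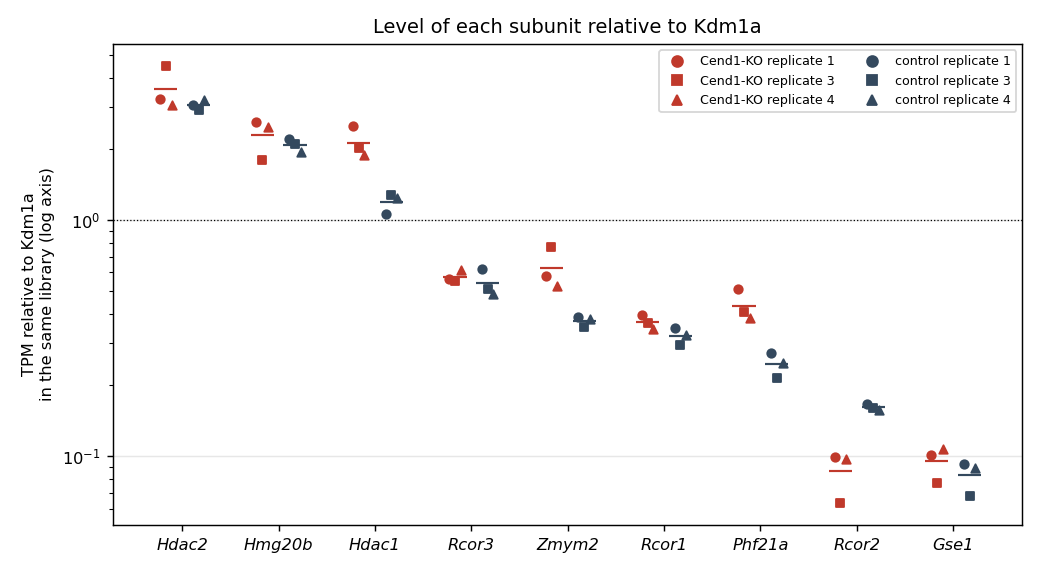
TPM of each other subunit divided by that of Kdm1a in the same library, on a log axis, with Cend1-KO in red to the left of control in dark blue, lines for group means and a dotted line at equality with Kdm1a. Hdac1, Phf21a and Zmym2 sit above, and Rcor2 below, every control.

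Within-library ratios of subunits and paralogs were tested by an exact two-sided permutation test over libraries, which with 3 against 3 cannot go below p = 0.10. Rcor2 over Rcor1 was 0.25, 0.173 and 0.280 in Cend1-KO replicates 1, 3 and 4, and 0.476, 0.540 and 0.485 in control replicates 1, 3 and 4. The groups were apart, with a difference in mean log2 ratio of -1.12 (exact permutation p = 0.10, adjusted p = 0.20 over the 6 ratios tested). With pseudocount 1 the difference was -0.63. Hdac1 over Hdac2 was 0.766, 0.447 and 0.614 in Cend1-KO replicates 1, 3 and 4, and 0.344, 0.433 and 0.386 in control replicates 1, 3 and 4. Here too the groups were apart, by a narrow margin at replicate 3 of each group, with a log2 difference of 0.62 (exact permutation p = 0.10, adjusted p = 0.20).

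Kdm1a over Kdm1b, the gene of the other flavin-dependent demethylase LSD2, was 3.11, 2.98 and 3.09 in Cend1-KO replicates 1, 3 and 4, and 4.34, 3.98 and 3.68 in control replicates 1, 3 and 4. The log2 difference was -0.38, smaller than that of the other separated pairs, with the same exact permutation p = 0.10 and adjusted p = 0.20. The ratios Rcor1 over Rcor3 and Kdm1a over Rcor1 overlapped between groups, with log2 differences of 0.09 and -0.19 (exact permutation p = 0.60 and 0.20, adjusted p = 0.72 and 0.30). No ratio can pass at 0.05 in a design of this size.

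**Figure D4:**
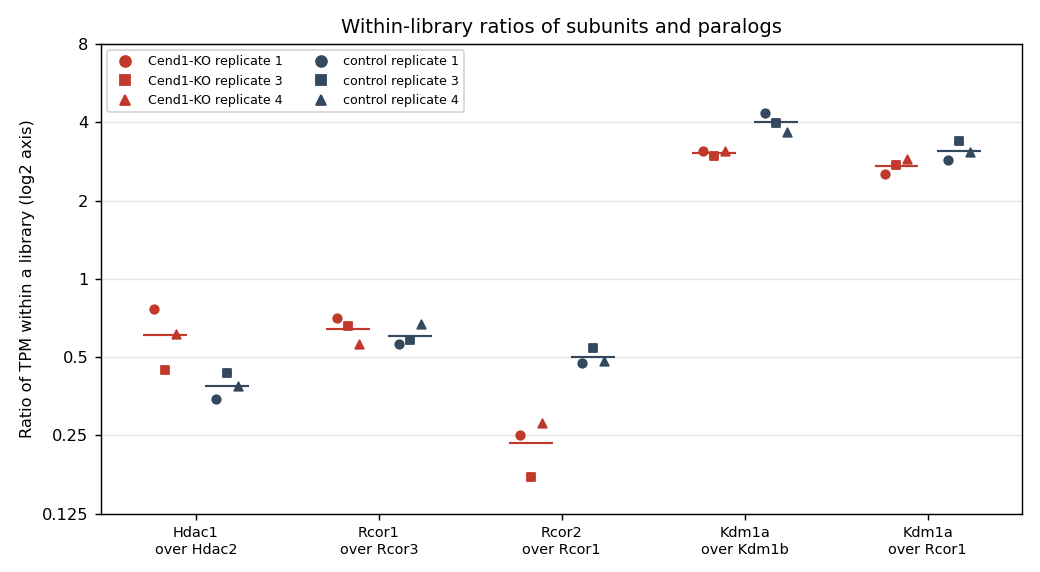
Ratio of TPM of the first gene to the second within each library, on a log2 axis, with Cend1-KO in red to the left of control in dark blue and group means as lines. The groups are apart for Hdac1 over Hdac2, Rcor2 over Rcor1 and Kdm1a over Kdm1b, and overlap for Rcor1 over Rcor3 and Kdm1a over Rcor1.

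The genes around the complex were read in 7 lists. Of 9 tested paralogs of the subunits 0 passed limma's test and 0 had an unadjusted p under 0.05 as deposited or after scaling, and the list median was -0.11, equal to that of all genes. Those with the smallest p were Zmym3 (2.74 ± 0.727 TPM in Cend1-KO and 3.64 ± 0.255 TPM in controls), Hdac3, the deacetylase of NCoR complexes, and Zmym1, with adjusted p = 0.525, 0.599 and 0.666 (limma). Of 11 tested factors that recruit the complex, 0 passed limma's test as deposited, with 1 at an unadjusted p under 0.05 (15.4% of all genes). After scaling 1 rose, beside 6.12% of all genes called as higher. That gene was Zeb2, a zinc-finger repressor of epithelial genes, at 13.8 ± 3.20 TPM in Cend1-KO and 8.90 ± 2.36 TPM in controls (SD, n = 3 each), with a scaled difference of 0.71 (adjusted p = 0.0195, limma). Its scaled call was lost without control replicate 1 or 3 (adjusted p = 0.0762 and 0.0822, limma). Zeb1 and Tal1 had scaled differences of 0.60 and 0.56 (adjusted p = 0.0575 and 0.0814, limma). Of 9 fibroblast markers, cells in which Zeb genes are also known, 5 were above every control, beside 5.67% of all tested genes. The 9 markers summed to 3226 to 4802 TPM in Cend1-KO and 1341 to 2665 TPM in controls, with none at 0. Their part in these values was not tested. Rest itself (named with its values known) had 3.98, 1.93 and 2.40 TPM in Cend1-KO and 2.54, 2.46 and 3.17 TPM in controls. Gfi1, Gfi1b, Insm1 and Nr2e1, recruiters of blood and neural cells, were at most 0.0855 TPM in any library.

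The deacetylases of the complex are shared with NuRD and SIN3. Of 12 tested NuRD subunits 0 passed limma's test on either scale. At an unadjusted p under 0.05 (limma), 2 were lower as deposited and 4 after scaling, beside 10.4% and 13.6% of all genes. The median was -0.24 as deposited and -0.12 after scaling. Rbbp7, a histone-binding subunit, had 93.4, 76.2 and 86.8 TPM in Cend1-KO replicates 1, 3 and 4, below the 118.8 to 125.3 TPM of the controls (adjusted p = 0.28, limma). Cdk2ap1 and Mbd3 were likewise below every control, with differences of -0.55 and -0.59 (adjusted p = 0.288 and 0.367, limma). As deposited, 18.6% of all tested genes were below every control in this way. Of 14 tested SIN3 subunits 0 passed limma's test on either scale. At an unadjusted p under 0.05 (limma) there were 1 as deposited and 3 after scaling, beside 15.4% and 28.5% of all genes. The median was 0.04 as deposited and 0.14 after scaling. Sap18 was at 18.1 ± 4.85 TPM in Cend1-KO and 27.8 ± 2.24 TPM in controls (SD, n = 3 each), with adjusted p = 0.273 and, after scaling, 0.0575 (limma). Sin3b and Arid4b had adjusted p = 0.501 and 0.662 (limma).

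Of 13 tested genes of the complexes that write H3K4 methylation, the mark LSD1 removes, 0 passed limma's test on either scale, with 0 at an unadjusted p under 0.05, and medians of -0.08 as deposited and -0.01 after scaling. Dpy30, Ash2l and Kmt2d were the genes with the smallest p, at adjusted p = 0.489, 0.524 and 0.549 (limma). Of the 4 KDM5 demethylases, which remove trimethylation at the same lysine, 0 passed limma's test on either scale, with 0 at an unadjusted p under 0.05. Kdm5a, Kdm5b and Kdm5c had differences of 0.14, 0.06 and -0.20 (adjusted p = 0.819, 0.937 and 0.834, limma).

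Of 24 genes listed as REST targets, many of them neuronal, 6 passed the filter. Cend1 is among them through its control values alone, and its call follows from the deletion. Of the other 5, Nppa, the gene of atrial natriuretic peptide, fell and 0 rose as deposited, beside 0.908% and 0.79% of all genes. Nppa had 187.2, 188.5 and 141.6 TPM in Cend1-KO replicates 1, 3 and 4, and 436.4, 530.8 and 324.0 TPM in control replicates 1, 3 and 4 (adjusted p = 0.015, limma). Its groups did not overlap, and 18.6% of all tested genes were lower in this way. Its call was lost without Cend1-KO replicate 4, control replicate 1 or control replicate 3 (adjusted p = 0.06, 0.0578 and 0.106, limma), and after scaling also without Cend1-KO replicate 1 (adjusted p = 0.0926, limma). Stmn2, a tubulin-binding protein of neurons, rose after scaling, to 6.42 ± 0.954 in Cend1-KO against 3.46 ± 0.886 in controls on the scaled TPM (SD, n = 3 each; adjusted p = 0.0269, limma), and had adjusted p = 0.294 as deposited. Its scaled call was lost without Cend1-KO replicate 1 or control replicate 1 (adjusted p = 0.0614 and 0.109, limma). With scaling and all libraries, 6.12% of all genes were called as higher. Hcn2, a pacemaker channel, had a difference of -0.49 (adjusted p = 0.385, limma). The 8 Schwann and neuronal markers summed to 2.45 to 4.84 TPM in Cend1-KO and 2.14 to 3.11 TPM in controls, with 0 of the 8 above every control and Th listed at 0 in every library.

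**Figure D5:**
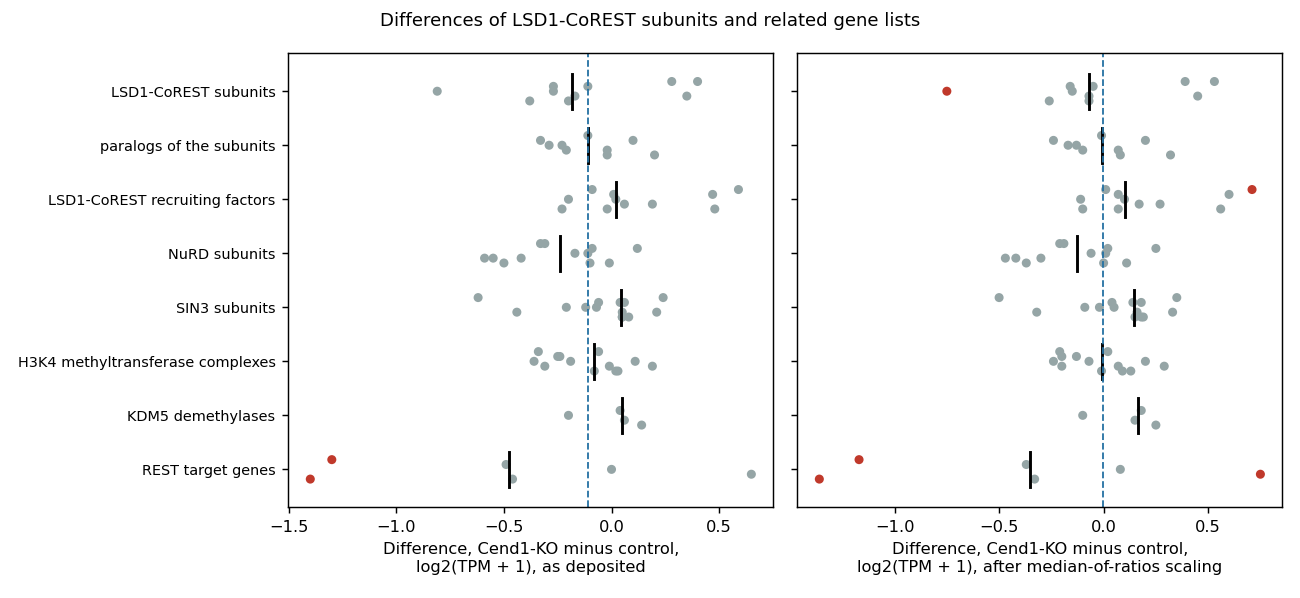
Difference, Cend1-KO minus control, of each tested gene in the subunit list and the 7 related lists, as deposited (left) and after median-of-ratios scaling (right), with points for genes (red where the adjusted p is under 0.05), black bars for list medians and a dashed line at the median of all tested genes. Cend1 and Nppa are the called genes on the left, joined on the right by Rcor2, Zeb2 and Stmn2.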

How the data were processed

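The submitters' processing notes name HISAT2 2.0.5 and mm10 besides CASAVA, and featureCounts 1.5.0-p3 besides fastp. How TPM were derived, and the annotation used, the sources used here do not say. The values are TPM made and deposited by the authors, each library summing to 1000000, so depth is unknown and no counting interval is given. Column names were tied to libraries by their labels, and symbols and coordinates came from GENCODE M21 (52029 of 57010 identifiers matched).

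Genes reaching 1 TPM in 3 or more of the 6 libraries were fitted with limma 3.58.1 in R 4.3.3 (trend, robust prior) on log2(TPM + 1), which understates changes of low genes. The script was tested on simulated data. Differences are Cend1-KO minus control. Ratios were tested by exact permutation, with adjustment over 6 ratios, of which 1 is not reported here. Subunits, lists and tests were chosen with earlier results of these data known. Genes named from a list are its 3 tested members with the smallest p and any member called, unless stated otherwise. Promoter sequences are from RefSeq (GRCm38.p6), where 9 of the 10 subunits matched, and motifs were chosen after the data were seen. Alternatives were median-of-ratios scaling, removal of mitochondrial and hemoglobin genes, other pseudocounts and filters, no robust prior, a replicate block and each library left out, and, added after the data were seen, scaling combined with the last 2.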

Additional observations from a re-analysis of the deposited data

How the results depend on the processing

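Of the 10 subunits, Kdm1a, Rcor3, Hdac1, Phf21a and Zmym2 kept their direction and stayed uncalled under every alternative run. Rcor1 also stayed uncalled and did not turn, but its difference of -0.17 as deposited shrank to -0.0 without Cend1-KO replicate 3. With a library left out as deposited, Hmg20b lay between -0.54 and 0.08 and Gse1 between -0.23 and 0.07. The direction of both turned without Cend1-KO replicate 3 (0.08 and 0.07, and 0.01 and 0.02 with scaling), and that of Hdac2 without Cend1-KO replicate 4 with scaling (0.03). The number of subunits called as lower, 0 as deposited, was 1 (Rcor2) with median-of-ratios scaling, with the replicate block, and with both together. Leaving out single libraries gave 0 to 1 as deposited and 1 with scaling, while Rcor2 had adjusted p between 0.0145 and 0.309 as deposited, and 0.0113 and 0.0477 with scaling (limma). Without the filter, limma called 0 of 30114 genes, with 2894 at an unadjusted p under 0.05. Over all genes, 230 were called as deposited, 1408 with scaling, 485 without mitochondrial and hemoglobin genes, 116 with a 5 TPM filter, and 65 to 808 with a library left out. A filter at 5 TPM left 7 of the 10 subunits, without Rcor2, Phf21a and Gse1. The replicate block gave Rcor2 an adjusted p of 0.0179 (limma) and 738 calls over all genes in place of 230. The block pairs libraries by title number, and the column names of the groups share no number. The deviations of same-numbered libraries correlated at -0.17, 0.04 and -0.12, and no Cend1-KO library correlated best with its own number in the control group. These deviations are from the mean of each small group, on unscaled values that carry library-wide shifts. They cannot show whether same-numbered libraries had more in common than the number.

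Of the recruiting factors 1 was called as higher with scaling, alone or with the block, and 0 to 2 with scaling and a library left out. Of the REST targets 1 was called as higher with scaling, alone or with the block, and 0 to 1 with a library left out. As lower, 2 were called as deposited, the deleted Cend1 included, 0 with no filter and 1 with the 5 TPM filter. With a library left out, 0 to 3 were called as deposited and 0 to 2 with scaling. Directions also turned for Zmym1 without Cend1-KO replicate 4 with scaling (0.05), for Kdm5a (-0.01 to 0.23 with a library left out as deposited) without Cend1-KO replicate 1, for Kdm5b (likewise -0.11 to 0.22) without Cend1-KO replicate 1 or control replicate 3 (-0.01), and for Kdm5c (likewise -0.61 to 0.12) without Cend1-KO replicate 3 (0.12, and 0.05 with scaling) or control replicate 4 (0.07, and 0.13 with scaling). The 5 ratios reported kept their direction under each alternative run. As deposited, Kdm1a lay between -0.55 and -0.19 with a library left out. The cause of these changes was not tested. Unknown depth limits what can be said of Rcor2 and Gse1, the lowest subunits.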

Other observations

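Gins2, the replication gene that overlaps the 3' end of Gse1 on the opposite strand, had 4.13, 1.92 and 3.28 TPM in Cend1-KO replicates 1, 3 and 4, and 3.77, 5.45 and 4.77 TPM in control replicates 1, 3 and 4. Kdm5d, the Y-linked KDM5 demethylase, was listed at 0 in Cend1-KO replicate 1 and control replicate 4, and was at 2.03 to 2.53 TPM in the other libraries. Its X-linked counterpart Kdm5c was highest in those same 2 libraries, at 11.1 TPM in Cend1-KO replicate 1 and 10.6 TPM in control replicate 4, against at most 6.75 TPM elsewhere. Each group thus held a library without the Y-linked transcript. The part of sex in the values of Kdm5c, Kdm5d and the subunits was not tested. Hcn4, a pacemaker channel gene controlled by REST that was too low to be tested, had 0.355, 0.261 and 0.287 TPM in Cend1-KO replicates 1, 3 and 4, and 0.788, 0.642 and 0.686 TPM in control replicates 1, 3 and 4. Bcl11a, a recruiting factor also below the filter, had 0.406, 0.453 and 0.651 TPM in Cend1-KO replicates 1, 3 and 4, and 1.24, 0.872 and 0.995 TPM in control replicates 1, 3 and 4. The groups of both genes did not overlap as deposited. Among the other listed genes below the filter, the REST targets Cacna1h and Celsr3 were also lower without overlap. Stmn3, another REST target, went the other way, with 1.08, 0.652 and 0.525 TPM in Cend1-KO replicates 1, 3 and 4, and 0.358, 0.132 and 0.513 TPM in control replicates 1, 3 and 4. The rest of these genes overlapped. Of all tested genes, 18.6% were lower and 5.67% higher without overlap, but these shares cover no gene below the filter. None of the genes below the filter was tested. The genes of this section were named after their values were seen.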
